A study of Mus musculus with 6 samples.

Results

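The enzymes of cholesterol biosynthesis described here are Hmgcs1, Idi1, Sqle, Lss, Cyp51, Msmo1, Sc5d and Dhcr7, taken by symbol from the genes counted in mouse 2-cell embryos. They are 8 of 48967 genes with a count table entry, and all 8 were among the 16020 genes that passed the filter on low counts. Both groups were wt embryos of the strain F1 (C57Bl/10 X CBA/H), kept in fatty acid-free KSOM from 0.5 dpc to 2.0 dpc and labelled day 2. Control embryos came from zygotes cultured in vitro, and delipidated embryos from zygotes whose lipid droplets had been aspirated. Each group had 3 libraries, and each library was a pool of 3 embryos. Delipidated zygotes were also exposed to cytochalasin B, repeated centrifugation, hyperosmotic sucrose medium and laser opening of the zona pellucida. The labels do not say that controls went through these steps, so they cannot be told apart from the loss of lipid. All pools were drawn from a shared collection of embryos, so the p-values measure the spread between these pools alone.

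Cholesterol is made from acetyl-CoA. An early series of steps leads through mevalonate and isoprenoid units to squalene, and a later series oxidises and closes squalene into lanosterol and trims it to cholesterol. The genes of the pathway are classic targets of SREBP2, which is released from the endoplasmic reticulum when its membranes are poor in sterol. The question of the comparison was which transcripts differed after the removal of lipid droplets, the organelles that store sterol esters and triglycerides.

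Counts assigned to genes were 12164963, 16165958 and 12980787 in control replicates 1, 2 and 3, and 20059460, 16332103 and 14683741 in delipidated replicates 1, 2 and 3. Delipidated replicate 1 had the most counts and the fewest genes with a count, 17091 against 19408 to 22855 in the other libraries. Levels are given in CPM, counts scaled to a common library size, after TMM, an adjustment for library composition. Fold changes are log2 of delipidated over control from edgeR's quasi-likelihood test. A gene was called at a Benjamini-Hochberg adjusted p under 0.05 over all tested genes with a log2 fold change beyond 1.

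None of the 8 enzymes was called, and 0% of all tested genes were. Over all 16020 genes edgeR called 0, and the unadjusted p was under 0.05 for 184 genes that were higher and 279 that were lower in delipidated embryos. DESeq2 without a filter on low counts called 9 genes higher and 40 lower, and no enzyme of the 8 was among them. The log2 fold change was above 0 for 3 enzymes and below 0 for 5, with a median of -0.38, beside a median of -0.000726 over all tested genes. An unadjusted p under 0.05 was found for 0 of the 8, and for 1.15% of all genes on the higher side and 1.74% on the lower side. In 0 of the 8 did the groups separate. Over all genes, every delipidated library lay above every control library for 3.81% and below for 5.05%. With shares this small, 0 of 8 does not set the enzymes apart from all genes. With 3 libraries against 3, the smallest two-sided exact permutation p is 0.1. Fewer transcripts in each cell and fewer contributing cells cannot be told apart in such pools.

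Hmgcs1 (ENSMUSG00000093930, chromosome 13, 119690379 to 119708260 on the forward strand of mm10) makes HMG-CoA, the precursor of mevalonate. Its counted parts run from 119690462 to 119708086, whereas those of the other enzymes reach both ends of the annotated gene. It had 165, 140 and 153 CPM in control replicates 1, 2 and 3 and 101, 114 and 181 CPM in delipidated replicates 1, 2 and 3. The control libraries lay close together, with delipidated replicates 1 and 2 below them and delipidated replicate 3 above them. The log2 fold change was -0.21 (SE 0.26, 95% interval -0.77 to 0.35), and the unadjusted p from edgeR was 0.429. For Hmgcs1 it was -0.049 without delipidated replicate 1 and -0.51 (unadjusted p 0.0533) without delipidated replicate 3. All 10 of its exonic parts held counts in every library.

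Idi1 (ENSMUSG00000058258, chromosome 13, 8885501 to 8892451, forward strand) interconverts the isoprenoid units that build squalene. Its level was 25.5, 3.99 and 5.85 CPM in control replicates 1, 2 and 3 and 0.198, 4.79 and 19.3 CPM in delipidated replicates 1, 2 and 3. A high library stood in each group, control replicate 1 and delipidated replicate 3, and delipidated replicate 1 had 4 counts. Those 4 counts lay in 1 of the 17 exonic parts, whereas 8 to 14 parts held counts in the other libraries. Its log2 fold change was -0.54 (SE 1.11, 95% interval -2.97 to 1.88). It was 0.73 without control replicate 1, 0.03 without delipidated replicate 1 and -2.24 without delipidated replicate 3, so its sign rested on single libraries. With limma-voom, another test of the same counts, Idi1 had -1.90 (SE 1.20).

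Sqle (ENSMUSG00000022351, chromosome 15, 59315077 to 59331192, forward strand) adds the oxygen to squalene and is a control point of the later steps. Control replicates 1, 2 and 3 had 127, 92.2 and 138 CPM of it, and delipidated replicates 1, 2 and 3 had 167, 126 and 114 CPM. Delipidated replicate 1 was the highest library and control replicate 2 the lowest, whereas delipidated replicates 2 and 3 lay below control replicates 1 and 3. The log2 fold change over all libraries was 0.18 (SE 0.25, 95% interval -0.36 to 0.73), and it was 0.0074 without delipidated replicate 1 and 0.030 without control replicate 2. With the exonic part of most counts alone it was 0.42 for Sqle.

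Lss (ENSMUSG00000033105, chromosome 10, 76531588 to 76557138, forward strand) closes oxidised squalene into lanosterol. The values were 29.4, 41.5 and 35.8 CPM in control replicates 1, 2 and 3 and 60.6, 28.7 and 22.9 CPM in delipidated replicates 1, 2 and 3. Delipidated replicate 1 lay above all other libraries, and delipidated replicates 2 and 3 lay below all controls. That highest library had Lss counts in 21 of the 39 parts, against 23 to 34 elsewhere. Of its 1228 counts, parts of 57, 72 and 51 bases held 152, 152 and 167, against at most 25 in any other library. For Lss the log2 fold change was 0.07 (SE 0.40, 95% interval -0.81 to 0.96), and it was -0.46 without delipidated replicate 1. With the exonic part of most counts alone it was 0.89 (SE 0.64, unadjusted p 0.186). In 3 of its 39 parts, with 13.9% of its counts, Lss overlaps 4930483K19Rik on the opposite strand, so these counts may belong to either gene.

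Cyp51 (ENSMUSG00000001467, chromosome 5, 4081145 to 4104746, reverse strand) is the cytochrome that removes a methyl group from lanosterol. It had 30.7, 21.9 and 53.6 CPM in control replicates 1, 2 and 3 and 18.7, 15.3 and 32.8 CPM in delipidated replicates 1, 2 and 3. Delipidated replicates 1 and 2 were lower than every control, and delipidated replicate 3 lay between control replicates 1 and 3. The log2 fold change was -0.67 (SE 0.44, 95% interval -1.64 to 0.30, unadjusted p 0.157), and it was -0.24 without control replicate 3 and -1.06 (unadjusted p 0.0453) without delipidated replicate 3. A part with 14.1% of its counts overlaps Akap9 on the opposite strand.

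Msmo1 (ENSMUSG00000031604, chromosome 8, 64718139 to 64733792, reverse strand) oxidises further methyl groups of the sterol. Its level was 7.59, 8.89 and 21.8 CPM in control replicates 1, 2 and 3 and 1.14, 4.42 and 7.69 CPM in delipidated replicates 1, 2 and 3. Only delipidated replicate 3 reached the control range, and it lay just above control replicate 1. The log2 fold change of -1.53 (SE 0.74, 95% interval -3.16 to 0.09) was the largest in size among the 8 in edgeR with all libraries, with an unadjusted p of 0.0616 and a Benjamini-Hochberg adjusted p of 1.00 in edgeR. It was -0.90 without control replicate 3 and -2.20 without delipidated replicate 3. Idi1 had the larger value in that last case and with limma-voom, where Msmo1 had -1.88. Delipidated replicate 1 had 23 counts in 3 of 20 parts, and the other libraries had counts in 9 to 12.

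Sc5d (ENSMUSG00000032018, chromosome 9, 42251595 to 42264256, reverse strand) puts a double bond into the sterol rings. There were 10.5, 6.17 and 10.7 CPM in control replicates 1, 2 and 3 and 2.96, 4.18 and 7.20 CPM in delipidated replicates 1, 2 and 3. Delipidated replicates 1 and 2 were below all controls, and delipidated replicate 3 was above control replicate 2. Sc5d had a log2 fold change of -0.93 (SE 0.61, 95% interval -2.28 to 0.41, unadjusted p 0.156). Delipidated replicate 1 had counts in 2 of the 10 parts, against 6 to 8 elsewhere.

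Dhcr7 (ENSMUSG00000058454, chromosome 7, 143823145 to 143848410, forward strand) reduces a ring double bond in a last step towards cholesterol. It had 46.8, 32.2 and 33.8 CPM in control replicates 1, 2 and 3 and 37.4, 54.8 and 39.1 CPM in delipidated replicates 1, 2 and 3. Control replicate 1 exceeded all but delipidated replicate 2, and the other controls were the lowest. For Dhcr7 the log2 fold change was 0.22 (SE 0.32, 95% interval -0.49 to 0.93), and it was 0.023 without delipidated replicate 2 and 0.42 without control replicate 1.

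**Figure D1:**
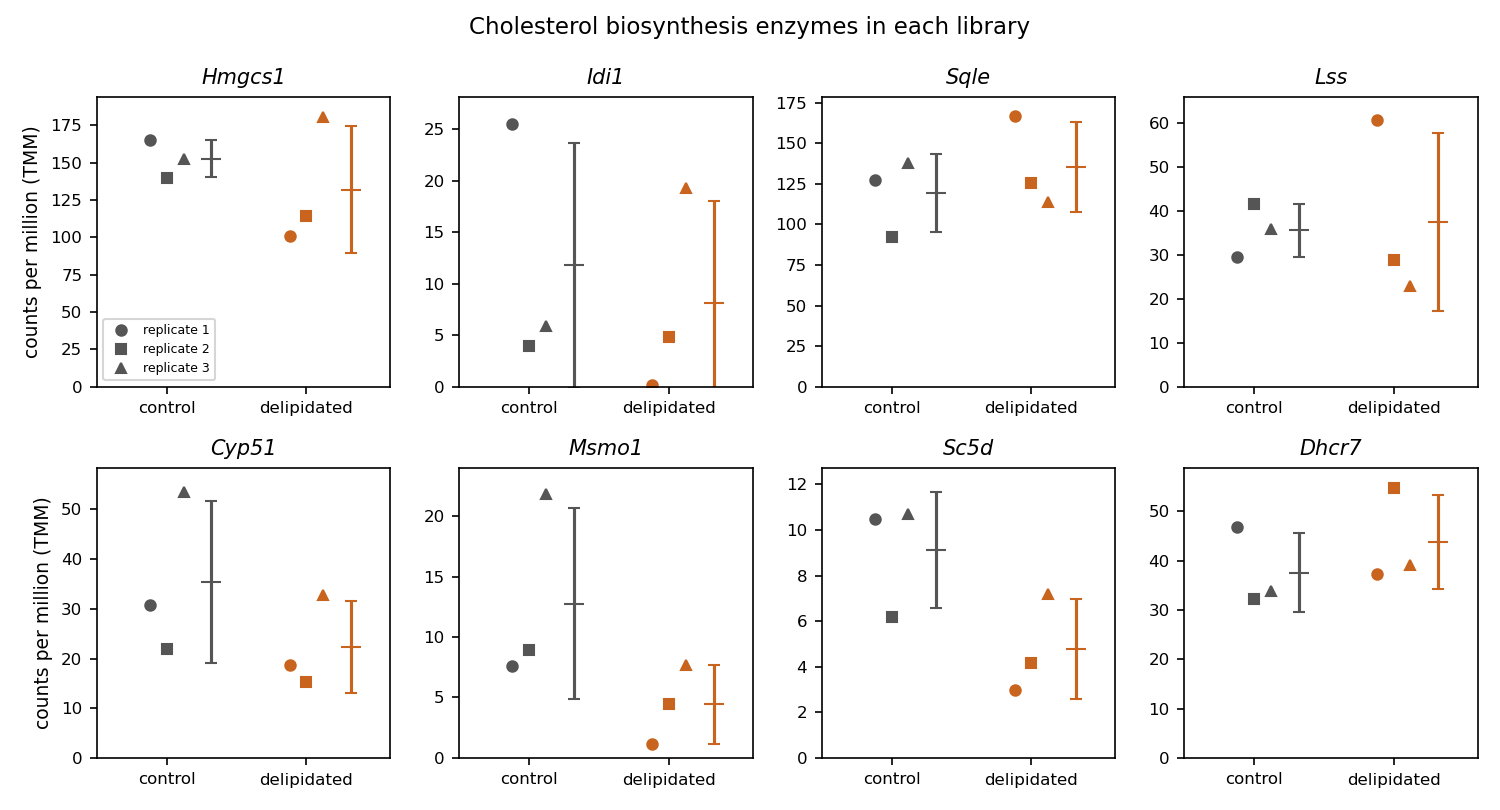
Level of each enzyme in CPM (TMM) per library, with points for replicates 1 to 3 and a bar for the mean and SD of each group (n = 3), where bars of Idi1 are drawn down to 0. The groups overlap for all 8 enzymes.

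Delipidated replicate 1 also had the thinnest coverage of the 8 genes. Counts were found in 140, 125 and 117 of their 172 exonic parts in control replicates 1, 2 and 3, and in 78, 111 and 125 in delipidated replicates 1, 2 and 3. Over all 425461 parts of the files the share with a count was 45.8%, 46.0% and 40.1% in the controls and 34.7%, 41.0% and 42.0% in the delipidated libraries, also lowest in delipidated replicate 1. The part of this coverage in the fold changes was not tested beyond the values without that library. Without it the median log2 fold change of the 8 enzymes was -0.25, without delipidated replicate 3 it was -0.78, and without control replicate 1 it was -0.086.

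**Figure D2:**
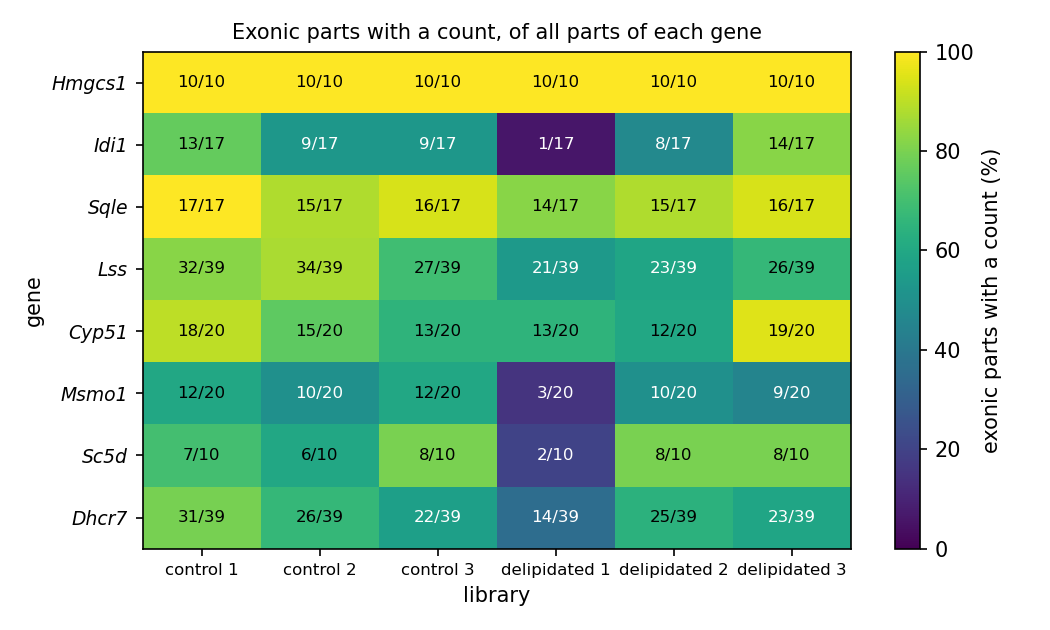
Exonic parts with at least 1 count, of all parts of each gene, per library, with colour as the percent. Delipidated replicate 1 has counts in 1 of 17 parts of Idi1, 3 of 20 of Msmo1 and 2 of 10 of Sc5d.

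Levels of different genes were compared per kilobase of summed exonic parts, a length that includes parts of every annotated transcript. A fragment can be counted in several parts, so a gene cut into more and shorter parts can have a higher value. The enzymes had from 10 parts, in Hmgcs1 and Sc5d, to 39, in Lss and Dhcr7. How far this shaped the order was not tested. Hmgcs1 was highest with 44.0 ± 9.36 CPM per kilobase (SD, n = 6), above 92.1% of tested genes. Sqle followed with 22.9 ± 4.48, and its range over the libraries did not meet that of Hmgcs1 or of Dhcr7. Dhcr7 had 6.99 ± 1.48 and Cyp51 6.53 ± 3.15 CPM per kilobase, Lss 3.38 ± 1.24 and Idi1 2.83 ± 2.86, and Sc5d 1.43 ± 0.65 and Msmo1 1.40 ± 1.15. From Dhcr7 down each range over the libraries overlapped the next, so these 6 formed no separate steps. The lowest value of all, 0.0563, was of Idi1. In control libraries alone Cyp51 had rank 3 and Dhcr7 4, Idi1 5 and Lss 6, and Msmo1 7 and Sc5d 8. Per kilobase of the part with most counts alone, Cyp51 came first with 33.8, ahead of Sqle with 25.1 and Hmgcs1 with 23.1, and Dhcr7 moved from rank 3 to rank 6 and Idi1 from rank 6 to rank 4. This measure changes the counts as well as the length, and the order differed from the first at several places. The part used had 93 bases in Idi1, 127 in Cyp51 and 169 in Lss, against 1698 in Hmgcs1. A short part also counts fragments that reach beyond it, so values of short and long parts are not on an equal footing.

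Another 13 genes of the pathway, given as background to the 8 and including Erg28, a scaffold of the demethylation steps, were all tested, and 0 were called. Their log2 fold change was above 0 for 5 and below 0 for 8, with a median of -0.082, and the groups overlapped for all 13. Fdft1, which makes squalene, was the most abundant of them, with 237, 225 and 253 CPM in the control and 284, 241 and 198 CPM in the delipidated replicates 1, 2 and 3. Among the others the log2 fold changes ran from -1.16 (SE 1.71) for Tm7sf2 to 0.51 (SE 0.77) for Pmvk. With single libraries left out the value of Tm7sf2 lay between -1.75 and -0.47, and that of Pmvk between 0.31 and 0.78. The smallest unadjusted p of the 13 was 0.397, of Nsdhl, which acts beside Msmo1 and had a log2 fold change of -0.80 (SE 0.91). For Nsdhl it was -0.11 without control replicate 3, -2.11 without delipidated replicate 3, -1.43 with limma-voom and -2.39 with the exonic part of most counts alone.

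**Figure D3:**
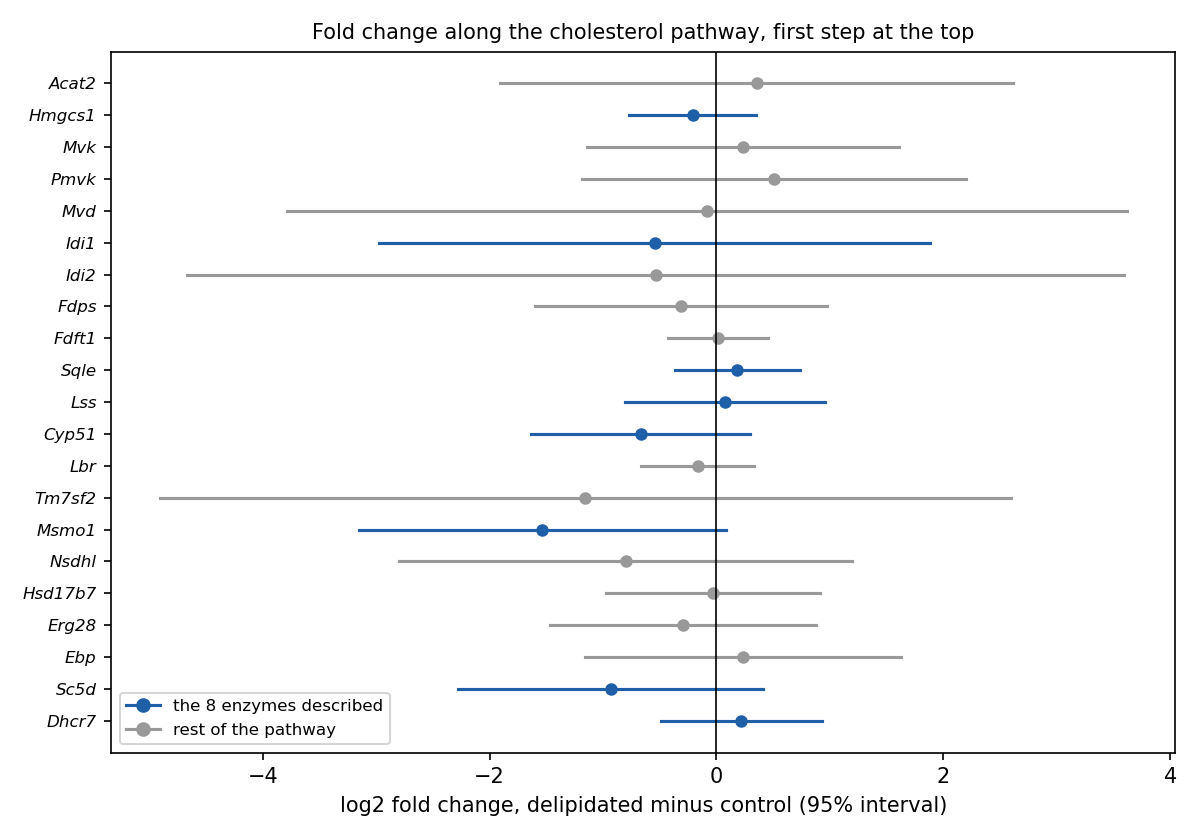
Log2 fold change of delipidated minus control embryos, with 95% intervals, for 21 pathway genes in order of their step, where blue marks the 8 enzymes and grey the other 13. Every interval includes 0.

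The factors that drive the pathway were measured in the same libraries. Srebf2 had a log2 fold change of 0.16 (SE 0.66), Scap, its escort, 0.09 (SE 0.26), and Insig1, which retains them, -0.03 (SE 0.28). The signs of Srebf2, Scap and Insig1 turned when some libraries were left out. Srebf1, more tied to fatty acid synthesis, had 6.83, 10.2 and 7.30 CPM in controls and 3.51, 3.50 and 1.76 CPM in delipidated replicates. Every delipidated library was below every control for Srebf1, with a log2 fold change of -1.47 (SE 0.66). In edgeR its unadjusted p was 0.0465 and its adjusted p 1.00. Where alternatives tested Srebf1, its unadjusted p ran from 0.0175 with DESeq2 to 0.147 in edgeR without control replicate 2 (log2 fold change -1.27). Mbtps1, a protease that cuts SREBP and the most abundant of these genes, had a log2 fold change of -0.27 (SE 0.25). The value of Mbtps1 was -0.42 without control replicate 1 and -0.18 without control replicate 2. Over the 7 factor and processing genes, 2 were higher and 5 lower, with a median of -0.11.

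Genes that turn over the enzymes numbered 8, of which 4 were higher and 4 lower, and their median was -0.0052 on the log2 scale. Faf2, an adaptor of protein extraction from the endoplasmic reticulum, had a log2 fold change of 0.43 (SE 0.37), Ube2g2 0.43 (SE 0.39) and the abundant Vcp -0.11 (SE 0.21), with unadjusted p of 0.263, 0.294 and 0.617. Single libraries moved these values, Faf2 to 0.21 without control replicate 1 and 1.02 (unadjusted p 0.00726) without control replicate 2, Ube2g2 to 0.056 without delipidated replicate 1, and Vcp to -0.26 without delipidated replicate 1 and -0.015 without delipidated replicate 2. Of 9 genes in isoprenoid side branches 6 were higher and 3 lower, with a median of 0.09. Pggt1b, a subunit of the geranylgeranyl transferase, had 1.52, 1.94 and 1.29 CPM in controls and 10.7, 6.39 and 3.04 CPM in delipidated replicates 1, 2 and 3. Every delipidated library was above every control for Pggt1b, with a log2 fold change of 2.08 (SE 0.80). In edgeR its unadjusted p was 0.0238 and its adjusted p 1.00. Where alternatives tested Pggt1b, its unadjusted p ran from 0.00502 with DESeq2 to 0.121 in edgeR without delipidated replicate 1 (log2 fold change 1.57). Ggps1, which makes its substrate, was lower in each delipidated library, with a log2 fold change of -0.44 (SE 0.50), and the groups did not overlap. Pdss1, of ubiquinone synthesis, had 0.93 (SE 0.59) and the abundant Nus1, of dolichol synthesis, -0.086 (SE 0.28). Without control replicate 2 the value of Pdss1 was 1.88 (unadjusted p 0.00816), and without control replicate 3 it was 0.57. Of 11 genes of sterol uptake, storage and export 10 were tested, with 2 higher, 8 lower and a median of -0.22, and Abca1, the exporter, had the smallest unadjusted p, 0.363. Its log2 fold change was -1.69 (SE 1.78), that of Abcg1 was -0.84 (SE 0.91), and that of Nr1h2, the most abundant of them, was 0.08 (SE 0.22). The signs of Abca1, Abcg1, Nus1 and Nr1h2 turned when some libraries were left out.

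The 3 genes outside the lists whose log2 CPM was most like the mean standardised profile of the 8 enzymes, among 8069 genes of at least 10 CPM, were Csnk1d, Rtraf and Gm10719. Pearson's r over the 6 libraries, which differ in depth and group, was 0.992, 0.991 and 0.990. These are the highest values among 8069 genes over 6 points, so they describe a selection and were not tested. The log2 fold changes of these 3 genes were -0.39, -0.40 and -1.31. Csnk1d moved to -0.24 without delipidated replicate 1, Rtraf to -0.046 with the exonic part of most counts alone, and Gm10719 to -2.19 (unadjusted p 0.00760) without delipidated replicate 3 and -0.90 without control replicate 1. Among the 8, r over the same libraries was 0.89 between Msmo1 and Sc5d and 0.88 between Hmgcs1 and Idi1, and -0.90 between Idi1 and Lss.

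Markers of the stage and of other cells were read beside these values. All 11 genes of 2-cell stage activation were counted, with summed levels of 368, 155 and 360 CPM in controls and 245, 297 and 389 CPM in delipidated replicates, and Usp17lc was the most abundant. All 15 oocyte genes were counted, led by Btg4, with sums of 4701, 2879 and 4307 CPM in controls and 3384, 3530 and 5021 CPM in delipidated replicates. Control replicate 2 was low in both sums. Blastocyst genes summed to 142, 167 and 132 CPM in controls and 146, 157 and 108 CPM in delipidated replicates. Most of each sum was Gata4, with 130, 155 and 114 CPM in controls and 135, 144 and 97.8 CPM in delipidated replicates. Cdx2, Krt7, Sox17 and Nanog of the same list had at most 19 counts in a library and were removed by the filter on low counts. Within that list the groups did not overlap for Eomes, lower in delipidated embryos with a log2 fold change of -2.36 (SE 0.70), or for Gata3, higher with 1.21 (SE 0.95), and the adjusted p in edgeR was 1.00 for both.

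Cumulus and granulosa genes summed to 21.5, 28.3 and 133 CPM in controls and 12.4, 32.4 and 18.8 CPM in delipidated replicates, with Amhr2 the most abundant. Foxl2 and Ptx3 had 0 counts in every library, and control replicate 3 held 653 counts of Cyp11a1 and 607 of Hsd3b1, against at most 4 and 5 elsewhere. Stroma genes, led by Vim, summed to 19.8, 18.9 and 30.4 CPM in controls and 1.93, 5.96 and 4.31 CPM in delipidated replicates. Vim had 152, 145 and 300 counts in controls and 0 in each delipidated library, and Col1a1 had 11, 26 and 42 in controls and 0 in each delipidated library. For the other stroma genes the libraries of the groups overlapped. Col1a2 had 14, 48 and 15 counts in controls and 0, 0 and 27 in delipidated replicates, Pdgfra 30, 83 and 21 against 39, 57 and 4, Thy1 2, 2 and 1 against 0, 40 and 3, and Dcn 0 in every control against 0, 0 and 27. Col3a1, Pdgfrb and Lum had counts in controls alone, at most 19 in a library. Leukocyte genes, led by Csf1r, summed to 16.03, 10.9 and 8.44 CPM in controls and 4.59, 3.99 and 11.9 CPM in delipidated replicates. Oviduct epithelium genes, led by Ovgp1, summed to 0.591, 6.89 and 2.58 CPM in controls and 9.33, 2.27 and 2.26 CPM in delipidated replicates. The part of other cell types in the levels of the enzymes was not tested.

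Promoter windows of 300 bases, 250 before and 50 after each start, were given by RefSeq on GRCm38.p6 for 7 of the 8 enzymes in 9 windows, and Sqle had none. They were searched on both strands for TCACNCCAC, a core of the sterol regulatory element, CCAAT, bound by NF-Y, and GGGCGG, bound by Sp1, and matches of different motifs did not overlap in these windows. TCACNCCAC was in 1 of the 9 windows, that of Hmgcs1, and in 1.24% of all 32851 windows. CCAAT was in 7 of the 9 windows and in 37.4% of all, and GGGCGG in 8 of the 9 and in 35.7% of all. Of the 9 windows 3 belong to Dhcr7, and a pair of these overlap each other. In the 12 windows of the further pathway genes TCACNCCAC was in 0, CCAAT in 8 and GGGCGG in 9. A match describes letters in the window and no binding. The windows of Hmgcs1, the sole match of the sterol element, and of Msmo1, the enzyme with the largest fold change in edgeR with all libraries, are shown 5′ to 3′ along the gene, with the matches in capitals. That of Hmgcs1 is chr13:119690101-119690400 on the forward strand and that of Msmo1 chr8:64733529-64733828 on the reverse strand.
Hmgcs1: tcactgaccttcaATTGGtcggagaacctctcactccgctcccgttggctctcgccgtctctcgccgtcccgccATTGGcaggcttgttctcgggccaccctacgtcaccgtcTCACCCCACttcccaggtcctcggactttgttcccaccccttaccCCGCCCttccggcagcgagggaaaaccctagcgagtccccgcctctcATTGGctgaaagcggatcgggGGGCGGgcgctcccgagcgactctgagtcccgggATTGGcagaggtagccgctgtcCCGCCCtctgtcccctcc
Msmo1: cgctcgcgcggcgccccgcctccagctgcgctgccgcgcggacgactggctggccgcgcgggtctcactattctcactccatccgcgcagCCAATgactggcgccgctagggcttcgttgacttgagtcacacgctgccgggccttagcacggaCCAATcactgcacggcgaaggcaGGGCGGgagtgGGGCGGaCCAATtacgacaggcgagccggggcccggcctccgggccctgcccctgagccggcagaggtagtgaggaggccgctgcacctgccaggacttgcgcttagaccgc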

How the data were processed

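RNA was measured in 3 control and 3 delipidated libraries, each a pool of 3 embryos. Per the labels and the study's methods, a stranded kit for total RNA with ribosomal depletion was used, and the submitters' processing notes name bcl2fastq 2.20, Trimmomatic 0.36, STAR 2.5.2b, featureCounts and the build mm10. The authors deposited raw counts for 425461 exonic parts per library, and a fragment can be counted in several parts, so sums look more precise than the reads behind them. Parts were summed per gene. Of 33309 parts under joined identifiers, 27968 that overlapped the exons of 1 gene in GENCODE vM21 were assigned to it, and the rest, 2.49% to 2.57% of a library's counts, were left out. Overlapping antisense genes and near-identical copies remain uncertain.

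Testing of the summed counts used edgeR 4.0.16 under R 4.3.3 (filterByExpr at min.count 10 and min.total.count 15, TMM, quasi-likelihood test without covariates), with tables made in Python 3.11.15. Alternatives used DESeq2 1.42.0 and limma 3.58.1, other scaling, filters and gene counts, the replicate number as a block, and each library left out. The methods were tested on simulated data. The members and lists were chosen with earlier results of these data known. Genes named were the 8 enzymes, 13 further pathway genes (some others are not reported here), Srebf2, Scap and Insig1, from each list of factors, turnover, isoprenoid branches and sterol uptake to export the 2 smallest p-values and the most abundant gene, and the 3 genes most like the enzymes. This rule did not cover the marker lists, of which the most abundant gene is given. Foxl2 and Ptx3 are added as markers at 0, with the blastocyst genes removed by the filter and all stroma genes. Vim, Col1a1, Cyp11a1, Hsd3b1, Ggps1, Eomes and Gata3 were named after their values were seen.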

Additional observations from a re-analysis of the deposited data

How the results depend on the processing

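Over 15 alternatives, none of the 38 genes named by rule passed the threshold, and their smallest adjusted p was 0.384, of Pggt1b with DESeq2. For the 8 enzymes it was 0.677. Of the enzymes 6 kept the sign of their fold change in all 15 alternatives, and Idi1 and Lss did not. Of 13 further pathway genes 4 kept it where they were tested, Nsdhl in all 15, Pmvk and Fdps in 14 and Tm7sf2 in 12. Vim, with an adjusted p of 0.0721 in edgeR, was called lower with no filter (adjusted p 5.70e-12 in edgeR and 1.07e-10 in DESeq2), and over the other alternatives that tested it the adjusted p ran from 0.0582 to 1.00. Col1a1, Eomes, Gata3 and Ggps1 were not called in any alternative that tested them, and Cyp11a1 and Hsd3b1 were removed by the filter on low counts and were not followed through the alternatives. The widest interval of the 8 enzymes was that of Idi1, -2.97 to 1.88, so its fold change was known no more closely than this with these libraries.

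Over all genes, 9 were called higher and 40 lower by DESeq2 without a filter, and 5 higher and 25 lower by edgeR without one, in both cases over 30967 genes, whose median log2 fold change was -0.17 with DESeq2 and -0.18 with edgeR. The other alternatives called 0. The number of enzymes with an unadjusted p under 0.05 was 0, and it was 1, Msmo1, with DESeq2, with no filter, with limma-voom and with the replicate block. With each library left out it ranged from 0 to 2, the 2 being Cyp51 and Msmo1 without delipidated replicate 3, and the median log2 fold change of the enzymes from -0.78 to -0.086, where the lowest was without delipidated replicate 3 and the highest without control replicate 1.

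The replicate numbers did not pair the libraries. Deviations from the group means correlated with r = -0.08, 0.07 and 0.04 for replicates 1, 2 and 3, and control replicate 1 correlated best with delipidated replicate 3. With the number as a block, 0 genes were called, 406 had an unadjusted p under 0.05, and the median of the enzymes was -0.45. The sign turned under the block for Lss at -0.054, Mvd at 1.15, Hsd17b7 at 0.073 and Abca1 at 1.69. With limma-voom it turned for Lss at -0.0069, Acat2 at -0.034, Mvd at 1.18, Hsd17b7 at 0.11 and Abca1 at 0.22. With the exonic part of most counts alone it turned for Mvk at -0.21, Lbr at 0.21, Hsd17b7 at 0.080 and Abcg1 at 0.46. Other values moved without a turn, with limma-voom to -1.90 for Idi1 and -1.43 for Nsdhl, and with the single exonic part to 0.89 for Lss, 0.42 for Sqle, -2.39 for Nsdhl, -0.86 for Fdps, -0.65 for Erg28, 0.76 for Srebf2, 0.53 for Scap, 1.88 for Pdss1, -0.59 for Csnk1d, -0.046 for Rtraf and -0.71 for Ggps1, among others. The cause was not tested.

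When single libraries were left out, the lowest and highest log2 fold changes were -0.51 and -0.049 for Hmgcs1, 0.0074 and 0.30 for Sqle, -1.06 and -0.24 for Cyp51, -2.20 and -0.90 for Msmo1, -1.35 and -0.68 for Sc5d, and 0.023 and 0.42 for Dhcr7. They were -2.11 and -0.11 for Nsdhl, -1.75 and -0.47 for Tm7sf2, 0.31 and 0.78 for Pmvk, -0.55 and -0.13 for Fdps, 0.056 and 0.61 for Ube2g2, 0.21 and 1.02 for Faf2 and 0.57 and 1.88 for Pdss1. For other genes the values crossed 0. They were -2.24 and 0.73 for Idi1, -0.46 and 0.33 for Lss, -1.23 and 1.55 for Acat2, -0.18 and 0.80 for Mvk, and -0.66 and 2.89 for Mvd. They were -1.22 and 0.13 for Idi2, -0.12 and 0.14 for Fdft1, -0.35 and 0.29 for Hsd17b7, -0.94 and 0.16 for Erg28, and -0.31 and 0.63 for Ebp. Outside the enzymes they were -0.20 and 0.50 for Srebf2, -0.044 and 0.27 for Scap, -0.20 and 0.089 for Insig1, -0.22 and 0.048 for Nus1, -3.65 and 2.64 for Abca1, -1.47 and 0.078 for Abcg1, and -0.044 and 0.19 for Nr1h2.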
